A study of Mus musculus with 2 samples.

Results

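The phagocyte NADPH oxidase genes were described in the control RNA-Seq of LPS-treated bone marrow-derived macrophages (BMDMs). The set was chosen by gene symbol and names 6 genes, *Cybb*, *Cyba*, *Ncf1*, *Ncf4*, *Rac1* and *Rac2*. A row was found for 5 of them among the 37451 genes of the expression table, and all 5 averaged 1 FPKM or more (fragments per kilobase of exon, relative to all mapped fragments). *Cyba*, which encodes the p22phox subunit, was not analysed here. WT and ΔM BMDMs gave 1 library each. Both came from C57BL/6 mice aged 7 to 9 weeks, and the WT animals were littermates of the ΔM animals. ΔM cells carry floxed alleles of the tristetraprolin (TTP) gene *Zfp36* and LysMCre, a Cre recombinase driven from the lysozyme M locus, so that the gene is deleted in myeloid cells. Both cultures were grown with CSF-1, given 100 μM 4-thiouridine for 16 h and treated with LPS at 10 ng/ml for 6 h by the treatment protocol. The sample titles end in LPS7, and what the 7 stands for is not given in the sources used here. Each genotype is thus a single sample without replicates, differences were not checked against a replicate spread, and the intervals given below cover counting error only. An unstimulated culture was not analysed here.

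The NADPH oxidase of phagocytes transfers electrons from NADPH across the membrane onto oxygen and so makes superoxide, the starting point of the respiratory burst that helps to kill ingested microbes. Its catalytic core is flavocytochrome b558, a membrane heterodimer of gp91phox (also called NOX2, encoded by *Cybb*) and p22phox. The core is silent until cytosolic subunits and a GTP-bound Rac protein join it. Inherited loss of a subunit causes chronic granulomatous disease. TTP is a zinc finger protein that binds AU-rich elements in mRNA and promotes decay, and its deletion raises the question of whether mRNA levels of such effector genes differ without it.

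The targeted gene *Zfp36* was at 65.3 FPKM in WT and at 16.7 in ΔM, a log2 ratio of ΔM to WT of -1.90 after adding 1 FPKM to both values. All 8 macrophage markers examined were above 5 FPKM in both libraries, with the adhesion receptor gene *Emr1* at 379.9 and 357.1 FPKM and *Cd68* at 387.6 and 389.6 FPKM. Neutrophils also carry much of this oxidase, and their 8 markers summed to 0.11 FPKM in WT and 0.48 FPKM in ΔM, with *Ly6g*, *Elane*, *Ngp*, *Retnlg* and *Cxcr2* listed at 0 in both. The 4 T cell, 3 B cell, 3 dendritic cell, 3 fibroblast and 2 erythroid markers summed to at most 1.04 FPKM per list in either library. The macrophage gene *Lyz2*, whose locus drives the Cre, was at 2481 FPKM in WT and at 1356 in ΔM. *Mrc1*, a mannose receptor, was at 5.45 FPKM in WT and at 11.6 in ΔM. The part of these differences in the values below was not tested. From the steps between low FPKMs, WT held about 37000000 fragments and ΔM about 32600000. In bulk RNA, fewer cells that express a gene and less of its RNA per cell cannot be told apart.

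AU-rich motifs are shown first, because TTP binds them and they give the sequence background to the levels. The longest annotated 3′ UTR of each measured gene was searched on its sense strand for the heptamer UAUUUAU and for the pentamer AUUUA, which the heptamer contains. Of 7935 expressed protein-coding genes with a 3′ UTR, 27.0% held the heptamer and 66.6% held the pentamer. The heptamer was found in the 3′ UTR of 1 of the 5 genes, *Ncf1*, where it starts at nucleotide 368 of 1490. *Ncf1* held the pentamer at 3 positions in all, the one inside the heptamer included. Sequences are from NCBIM37 (mm9), read 5′ to 3′ on the strand of the gene as DNA, with the motif in capitals. The 3 *Ncf1* positions are on the minus strand of chromosome 5, at chr5:134697236-134697262, chr5:134696868-134696892 and chr5:134696426-134696450, in this order.
Ncf1 heptamer: aaaatacagaTATTTATttctatagat
Ncf1 pentamer at 738: ttgagatcagATTTAgctagtgtga
Ncf1 pentamer at 1180: actgaaaaaaATTTAaaaagagagg

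*Cybb*, with the longest 3′ UTR of the set at 2965 nt, held 5 pentamers and no heptamer in that sequence. They lie on the minus strand of chromosome X and are given from the 5′ to the 3′ end of the UTR, with windows at chrX:9014668-9014692, chrX:9014329-9014353, chrX:9014325-9014349, chrX:9012825-9012849 and chrX:9012378-9012393. The second and the third overlap, and the last one ends with the transcript. Among the 1067 genes with a 3′ UTR within 1.25 times this length in either direction, 94.5% held a pentamer and 45.9% held a heptamer.
Cybb pentamer at 661: agcactctacATTTAccatggtgtt
Cybb pentamer at 1000: agaagaacacATTTAtttactgaca
Cybb pentamer at 1004: gaacacatttATTTActgacagaaa
Cybb pentamer at 2504: agttcttagaATTTAgtaacagata
Cybb pentamer at 2960: aatagcaaacATTTAa

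*Rac1* held 1 pentamer in 1497 nt, at chr5:144266926-144266950 on the minus strand. *Rac2* held none in 2319 nt, where 91.7% of the 1332 genes of like length held at least 1, and *Ncf4* held none in a 3′ UTR of 189 nt, a length at which 25.9% of 397 genes did so. A motif match is a description of the letters and not a binding site. Of the 5 genes, only *Rac1* is in the study's list of TTP binding sites for this time point. That list keeps only sites above a cutoff of crosslinks that were found in every replicate. Absence from it therefore does not show that TTP does not bind a gene's RNA. The listed site is on the minus strand of an intron. Its 7 nt at chr5:144280865-144280871 lie outside every annotated exon, 1815 nt from the nearest exon on one side and 7760 nt on the other. It is shown in capitals with 10 nt on either side. The stretch shown holds overlapping matches to the heptamer, TATTTAT as DNA. The last of them starts in the upstream flank and runs into the site.
Rac1 pentamer at 903: ttgagtccatATTTAaactggccac
Rac1 intronic site: tatttatttaTTTATTTaatatatgta

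The genes spanned a 21.9-fold range of levels in WT and a 19.8-fold range in ΔM. *Cybb* was the highest, followed by *Ncf4*, *Ncf1*, *Rac2* and *Rac1*, in the same order in both libraries. No 2 neighbours in this order had overlapping 95% counting intervals within a library. FPKM is scaled to length, which allows these levels to be set side by side between genes. *Rac1* is an exception, because near-identical copies elsewhere in the genome make its level uncertain, as described below. The 2 fold ranges and the place of *Rac1* below *Rac2* share this limit. Summed over the 5 genes, the level came to 907.5 FPKM in WT against 785.3 FPKM in ΔM, a ratio of 0.865 with a counting interval from 0.85 to 0.88. *Cybb* held 56.0% of that sum in WT and 57.1% in ΔM, and without it the sums were 398.9 and 336.8 FPKM, a ratio of 0.844.

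**Figure D1:**
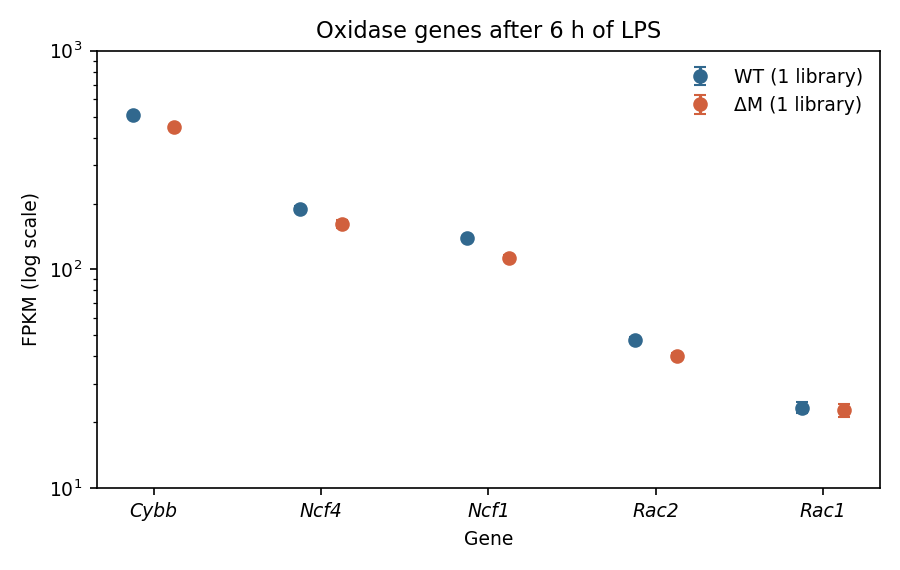
FPKM of the 5 measured oxidase genes on a log axis, with 1 point per library (blue for WT, orange for ΔM) and bars for the approximate 95% Poisson counting interval, most of which are smaller than the point. The orange point is below the blue one for each gene, by the least for *Rac1* (23.3 and 22.7 FPKM) and over a range of levels that reaches 508.7 FPKM for *Cybb* in WT.

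All 5 genes were lower in ΔM, with log2 ratios from -0.30 to -0.04 and a median of -0.22. None was past 2-fold in either direction. Among all 10765 genes that averaged 1 FPKM or more, 5.69% were at least 2-fold higher and 3.61% at least 2-fold lower in ΔM, and among the 8078 protein-coding genes 1.19% and 1.32% were. None of the 5 was past 1.5-fold either, where 4.82% of protein-coding genes were higher and 5.36% lower. The median log2 ratio was 0.0284 over all genes and -0.00148 over protein-coding genes, of which 50.2% were lower in ΔM. The middle 50% of protein-coding genes ran from -0.19 to 0.18, with *Ncf1*, *Rac2* and *Ncf4* below its lower end and *Cybb* and *Rac1* inside it. For *Ncf4* this depended on the added 1 FPKM. Without it the middle 50% ran from -0.23 to 0.22, and *Ncf4*, at -0.22, was just inside. Genes of the same pair of libraries are not replicates, so the shared direction is given as a description. Among the 384 protein-coding genes that averaged 100 FPKM or more, the level range of *Cybb*, *Ncf4* and *Ncf1*, the middle 50% ran from -0.14 to 0.12, and these 3 genes were below it.

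*Cybb* (ENSMUSG00000015340, chromosome X, 9012378 to 9064897, minus strand), the catalytic subunit that carries the heme and flavin groups, was at 508.7 FPKM in WT and at 448.5 in ΔM. The intervals were 499 to 518 FPKM and 439 to 458 FPKM and did not overlap. The FPKM ratio of 0.882 (0.857 to 0.907) corresponds to a log2 ratio of -0.18. *Cybb* ranked 48th by FPKM among the expressed protein-coding genes in WT and 60th in ΔM. Its log2 ratio was at percentile 26.3 of these genes, where a low percentile means lower in ΔM.

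The cytosolic subunits were the next most abundant. *Ncf4* (ENSMUSG00000071715, chromosome 15, 78075231 to 78093010, plus strand) encodes p40phox, which binds phosphatidylinositol 3-phosphate on the phagosome. It was at 188.4 FPKM in WT, with an interval from 182 to 195, and at 161.2 FPKM in ΔM, with an interval from 155 to 168. The ratio was 0.856 (0.81 to 0.904) and the log2 ratio -0.22, at percentile 22.1.

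*Ncf1* (ENSMUSG00000015950, chromosome 5, 134695923 to 134705495, minus strand) encodes p47phox, the organizer that is phosphorylated on activation and carries the cytosolic complex to the membrane. It was at 139.5 FPKM in WT (137 to 142) and 112.9 FPKM in ΔM (110 to 116). This was the lowest ratio of the set, 0.809 (0.784 to 0.834), with a log2 ratio of -0.30 at percentile 15.9. The end of *Ncf1* overlaps *Gtf2ird2* on the opposite strand by 4303 nt of the annotated genes, and *Gtf2ird2* was at 0.86 FPKM in WT and at 1.05 in ΔM.

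The 2 GTPases were at lower levels than the other subunits. *Rac2* (ENSMUSG00000033220, chromosome 15, 78389599 to 78403213, minus strand) encodes the Rac protein of blood cells. It was at 47.7 FPKM in WT (46.3 to 49.0) and 40.1 FPKM in ΔM (38.8 to 41.4). The ratio was 0.841 (0.805 to 0.877) and the log2 ratio -0.25, at percentile 20.5.

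*Rac1* (ENSMUSG00000001847, chromosome 5, 144266346 to 144288904, minus strand) encodes the Rac protein found in most cells, which also directs actin in membrane ruffles. It was at 23.3 FPKM in WT (21.9 to 24.7) and 22.7 FPKM in ΔM (21.2 to 24.2). These intervals overlap, and the ratio of 0.975 had an interval from 0.892 to 1.065 that includes no difference. *Rac1* was the only one of the 5 genes for which this was so. Its interval does not reach those of *Ncf1* and *Rac2*, and it overlaps those of *Cybb* and *Ncf4*. *Rac2* was 2.05 times as high as *Rac1* in WT and 1.77 times in ΔM.

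**Figure D2:**
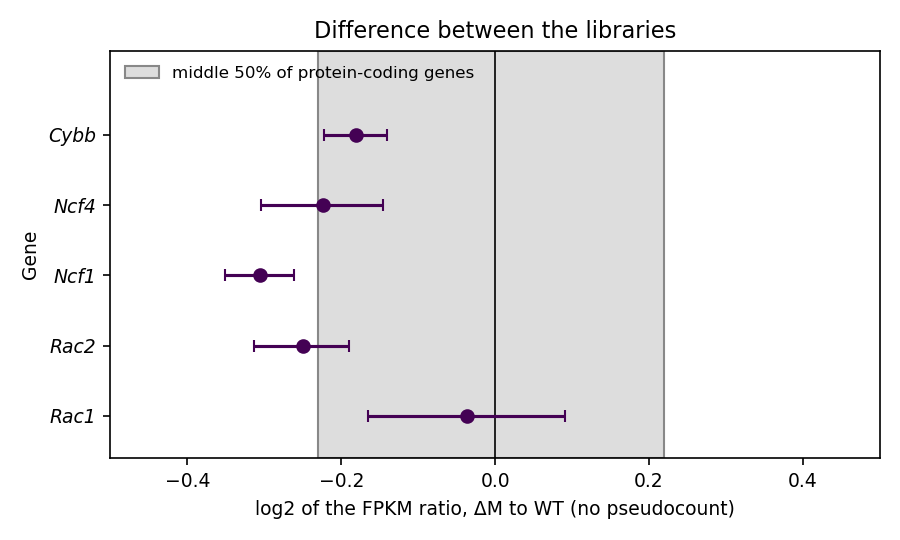
Log2 of the FPKM ratio of ΔM to WT for each gene, with points for the ratio of the 2 libraries and bars for its 95% counting interval. The grey band marks the middle 50% of protein-coding genes without a pseudocount (-0.23 to 0.22). The points of *Ncf1* and *Rac2* lie below the band, that of *Ncf4* is just inside its lower edge, the bar of *Rac1* crosses 0, and the other 4 bars lie below 0.

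Near-identical copies elsewhere in the genome bear on such levels, because the authors kept only reads that mapped to a single place. The longest protein-coding transcript of each gene was cut into windows of 100 nt every 50 nt, and each window was aligned to the genome. *Cybb*, *Ncf1* and *Ncf4* had no window with a full-length copy of at most 2 mismatches outside the gene, like 81.5% of the 3035 protein-coding genes that averaged 10 FPKM or more. *Rac2* had 1 such window of 59. *Rac1* had 13 of 45 (28.9%), of which 8 had a copy on chromosome 15, a share reached by 5.5% of those genes. An exact copy was found for only 1 of these 13 windows, and copies of the rest differed by 1 or 2 nt. The levels of *Rac1*, and the ratio of *Rac2* to *Rac1*, are therefore uncertain, and whether fragments were lost to these copies was not tested.

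*Rac3*, the third Rac gene and outside the named set, had no such window and was at 14.2 FPKM in WT and at 12.2 in ΔM, with a ratio of 0.858 (0.712 to 1.033).

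**Figure D3:**
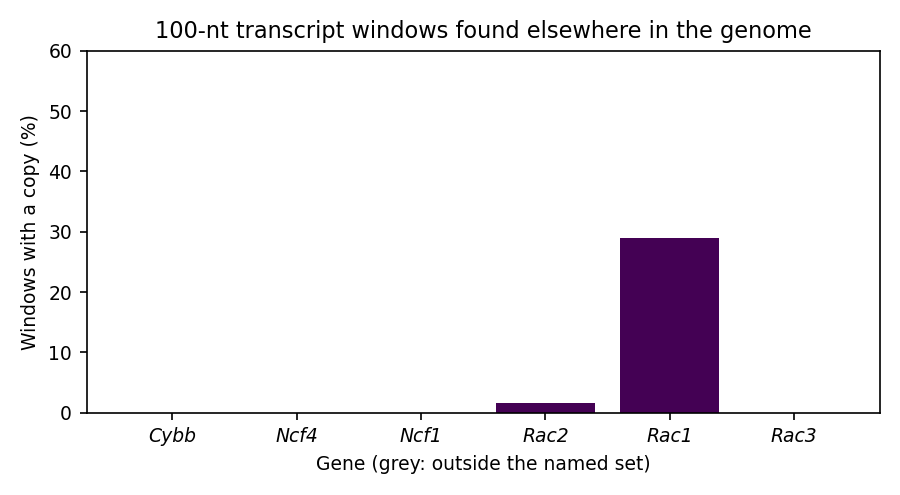
Share of 100-nt windows of the longest transcript that have a copy with at most 2 mismatches elsewhere in the genome, as bars per gene, purple for the 5 measured members and grey for *Rac3*. *Rac1* (28.9%) stands above the others, *Rac2* is at 1.7%, and the remaining genes are at 0.

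Apart from *Nox1*, other NADPH oxidases were nearly silent. Of 9 genes for the remaining oxidases and their subunits, only *Nox1* reached a mean of 1 FPKM, and the other 8 were at most at 0.29 FPKM in either library (*Noxo1* in WT). *Nox1*, the catalytic subunit best known from colon epithelium, was at 16.8 FPKM in WT, against 10.0 FPKM in ΔM. Its ratio of 0.594 (0.53 to 0.665), a log2 ratio of -0.70 at percentile 3.3, was lower than that of any measured member. *Cybb* stood far above it in both libraries. The annotated *Nox1* gene overlaps *Cstf2* on the opposite strand by 399 nt, and *Cstf2* was at 23.0 FPKM in WT and at 25.1 in ΔM. The adaptor was ligated to the 3′ end of the RNA, which marks the strand, but whether the FPKM calculation used the strand is not given in the sources used here, so reads of this overlap cannot be assigned with certainty.

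Lists of genes that act with the oxidase comprised 55 genes outside the set, among them the oxidase genes above. Of these, 53 had a row and 36 averaged 1 FPKM or more, with 22 higher and 14 lower in ΔM, none past 2-fold and a median log2 ratio of 0.06. Past 1.5-fold on that scale were 1 gene higher (*S100a8*) and 1 gene lower (*Nox1*). *Spi1* and *Irf8* were not analysed here.

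Of the chaperones, partners and ion channels of the oxidase, all 7 genes that averaged 1 FPKM or more were higher in ΔM. Their log2 ratios ran from 0.03 to 0.97, with a median of 0.33. Among protein-coding genes 50.2% were lower in ΔM, and their middle 50% ran from -0.19 to 0.18. Of the 7 ratios, those of *Rap1a* (0.03) and *Rubcn* (0.13) lay inside this range, and that of *Clcn3* (0.18) was at its upper edge. *Rap1a* and *Clcn3* averaged only 1.75 and 1.345 FPKM, close to the filter of 1 FPKM. *Lrrc33* (also *Nrros*), known to lower the amount of gp91phox protein, was at 60.4 FPKM in WT and at 79.2 in ΔM, a ratio of 1.31 (1.25 to 1.376). *BC017643* (also *Cybc1*), a chaperone that flavocytochrome b558 needs to be stable, was at 42.3 FPKM in WT and at 53.3 in ΔM, a ratio of 1.26 (1.151 to 1.378), and was named after its values had been seen. *S100a8*, a calcium-binding protein that with S100A9 can assist oxidase assembly, was at 50.7 FPKM in WT and at 100.02 in ΔM, while *S100a9* was listed at 0 in both. The direction of the 7 genes was opposite to that of the 5 measured subunit genes. Both lists were chosen with earlier results of these data known, so this contrast is only a description and was not tested.

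**Figure D4:**
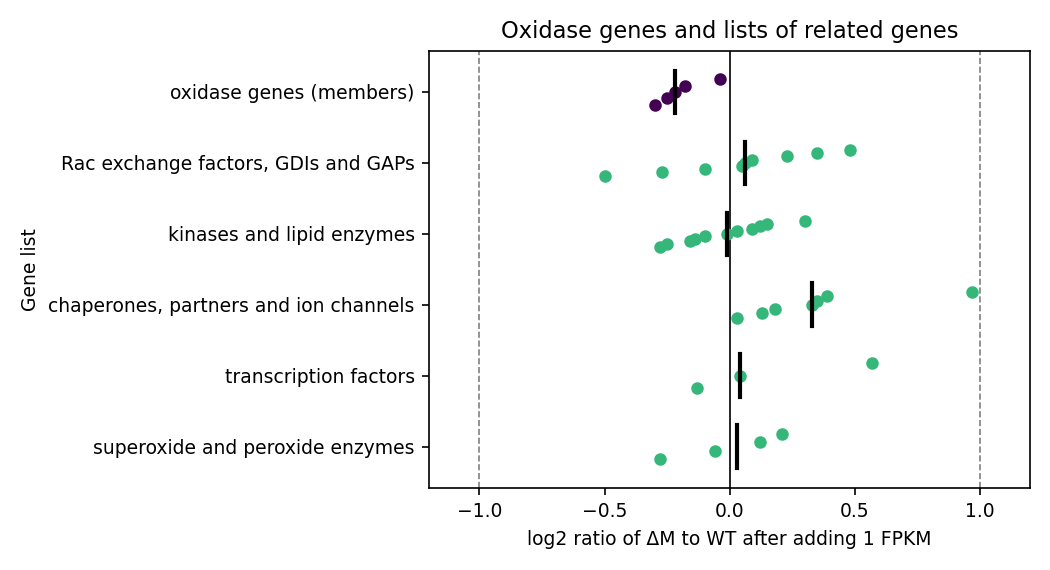
Log2 ratios of ΔM to WT after adding 1 FPKM, with 1 point per gene that averaged 1 FPKM or more, purple for the measured oxidase genes and green for 5 lists of related genes. Black bars are medians and dashed lines mark 2-fold; the oxidase genes lie from -0.30 to -0.04 and the chaperones, partners and ion channels from 0.03 to 0.97.

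Regulators of Rac were spread over both directions. Of 9 expressed exchange factors, GDIs and GAPs, 6 were higher and 3 lower, with a median of 0.06 and a range from -0.50 to 0.48. *Arhgdib*, the GDI of blood cells that keeps Rac in the cytosol, was at 112.7 FPKM in WT and at 132.3 in ΔM, and *Vav1*, a Rac exchange factor, at 98.95 and 103.1 FPKM. Among kinases and lipid enzymes, 5 were higher and 6 lower, with a median of -0.01 and a range from -0.28 to 0.30. *Pla2g4a*, which releases arachidonic acid, was at 142.4 FPKM in WT and at 145.4 in ΔM, and *Pik3cd*, a PI3-kinase of leukocytes, at 117.7 and 128.2 FPKM.

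Of the 3 expressed transcription factors, 2 were higher and 1 lower. *Irf1* was at 106.7 FPKM in WT and at 109.5 in ΔM, and *Cebpb* at 84.8 and 77.6 FPKM. The enzymes that remove superoxide and peroxide had 2 genes higher and 2 lower, with a median of 0.03. *Sod2*, the mitochondrial superoxide dismutase, was at 147.6 FPKM in WT and at 121.2 in ΔM, and *Gpx1*, a glutathione peroxidase, at 53.8 and 62.6 FPKM.

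The protein-coding genes nearest to each oxidase gene in both libraries, by distance on the log2 scale, were *Arap1* for *Cybb* (distance 0.078), *Rab5c* for *Ncf4* (0.046), *Casp4* for *Ncf1* (0.016), *Tifa* for *Rac2* (0.034) and *Snx6* for *Rac1* (0.015). Likeness over 2 libraries says no more than that their levels are close. *Casp4*, for example, was at 140.5 FPKM in WT and at 113.8 in ΔM.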

How the data were processed

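Total RNA of WT and ΔM BMDMs was depleted of rRNA and sequenced paired end. After adaptor trimming, the authors aligned reads to mm9 (Segemehl), retained unique alignments and ran Cufflinks with Ensembl exons. The deposited values are FPKM, 1 per gene and library, and 1 gene has no number in ΔM. Count models do not apply to FPKM, and with a single library for each genotype no test was made. All value columns were assigned by name.

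For log2 ratios, ΔM over WT, 1 FPKM was added to both values, which understates differences of low genes. Genes averaging 1 FPKM or more formed the background. Gene types and transcripts came from GENCODE M1 of NCBIM37, which held 37039 of the gene identifiers.

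Depth was estimated by searching for the number of fragments and the fragment length (201 nt in WT, 200 nt in ΔM) that turn low FPKMs of genes with 1 transcript into whole fragments. Within 0.15 fragments, 93.9% of low values in both libraries were whole, against medians of 19.4% and 23.1% over other depths. The search was tested on simulated data. Poisson intervals of levels and exact (Clopper-Pearson) intervals of the ratios of single genes, both 95%, used these depths and the median annotated transcript length. The interval of the ratio of sums was instead a normal approximation from fragments pooled over the genes. It does not weight genes by length and is therefore only approximate.

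Transcript windows were aligned with minimap2 2.31. The members and lists were chosen with earlier results of these data known. Named genes are the members, *Zfp36*, *Rac3*, the 2 highest genes of each related list, genes past 2-fold and the nearest gene to each member. *Gtf2ird2*, *Cstf2*, *Lyz2*, *Mrc1*, *BC017643*, *S100a9*, *Rap1a*, *Rubcn*, *Clcn3* and single markers were named after their values were seen. A further gene of the rule is not reported here. Alternatives covered the pseudocount, scaling, filter, fold, gene background and transcript length. Software was Python 3.11.15 with numpy 2.4.6, scipy 1.17.1, pandas 2.3.3, pysam 0.24.0 and matplotlib 3.10.9.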

Additional observations from a re-analysis of the deposited data

How the results depend on the processing

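No paired analysis was possible because each genotype has a single library, which also means that none could be left out. Of 52 comparisons with an alternative, 45 stayed within their limit (counting error for an oxidase value, the standard error over genes times a normal quantile for the median of all genes, 1.5 times for a count, 50% for the width of an interval) and 7 moved. No measured oxidase gene changed sign, and the median log2 ratio of the oxidase genes stayed negative. These alternatives could hardly have changed a sign, so this is no check of the direction. Adding the same value to both libraries cannot do so, and centring on the positive median of all genes only lowers the ratios. Scaling to equal protein-coding sums multiplied ΔM by only 1.003. The ratio of their summed levels was 0.844 without *Cybb*, against 0.865 with it. The number of genes past 2-fold, 1002 among all genes, was 436 at a mean of 10 FPKM or more, 2010 at 1.5-fold and 203 among protein-coding genes, where fewer genes were counted or the fold was lower. The median log2 ratio of all genes, 0.0284, changed sign to -0.00148 over protein-coding genes. Depth limits *Rac1* most among the 5 genes, with about 1076 fragments in WT and 925 in ΔM. The width of the interval of the log2 ratio of *Cybb*, 0.081, was 0.029 with its longest and 0.144 with its shortest coding transcript. That of *Ncf4*, 0.158, was 0.092 with its longest, which stayed within the limit.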
